A study of Mus musculus with 6 samples.

Results

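Imprinted genes were followed in mouse embryonic fibroblasts (MEFs), cultured connective tissue cells of the embryo, in 3 RNA sequencing libraries labelled WT and 3 labelled GαqKO. The members were a list of 39 genes known to be imprinted in the mouse, 22 read mainly from the paternal copy and 17 mainly from the maternal copy, and they were found by their Ensembl identifiers. Of these, 38 were among the 56953 genes of the table, 17 had values high enough to be tested and 21 did not. Zrsr1 could not be matched to an identifier, so its expression is not analysed here. The WT cells carried no stated deletion, and the cells labelled GαqKO are described in the study's methods as a knockout of Gnaq together with Gna11. Cells of both genotypes were grown in DMEM with fetal bovine serum, without a further treatment. Age, sex and strain of the embryos are not given in the sources used here, and neither is whether the replicates came from separate embryos, so that p-values measure only the spread between these libraries, and a difference between the source embryos or lines and a difference between the genotypes cannot be told apart.

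Most genes are read from both parental copies, whereas an imprinted gene is read mainly or only from the copy inherited from 1 parent. The choice is laid down as DNA methylation in the egg or the sperm at an imprinting control region, which acts on a cluster of neighbouring genes, often through a long noncoding RNA or an insulator. Many imprinted genes act on growth of the embryo and the placenta, and a number of them are read at high levels in embryonic mesenchyme and fall silent after birth. The libraries count reads per gene and do not separate the alleles, so the levels below are sums over both copies, and the parental copy named for each gene is background.

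The promoters of 4 members whose results are central below are shown, because they lie in clusters that differed most between the groups or, for Grb10, in front of the member with the most reads. Each is a RefSeq window of 300 bases (250 before the start of the transcript and 50 after it) on build GRCm38.p6, which is not the build of the counts. Letters run 5′ to 3′ on the strand of the gene, and capitals mark each CG, the dinucleotide that DNA methylation acts on. Dlk1 is shown from chr12:109452573-109452872 on the plus strand, and Meg3 (the first of its windows) from chr12:109540746-109541045 on the plus strand. Peg3 is shown from chr7:6730370-6730669 on the minus strand, and Grb10 (the first of its windows) from chr11:12037371-12037670 on the minus strand.
Dlk1: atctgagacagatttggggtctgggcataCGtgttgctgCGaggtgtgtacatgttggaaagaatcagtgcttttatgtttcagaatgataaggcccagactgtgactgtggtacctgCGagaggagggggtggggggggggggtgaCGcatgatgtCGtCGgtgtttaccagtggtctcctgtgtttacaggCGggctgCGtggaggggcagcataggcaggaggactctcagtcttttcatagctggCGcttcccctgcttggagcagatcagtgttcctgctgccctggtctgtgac
Meg3: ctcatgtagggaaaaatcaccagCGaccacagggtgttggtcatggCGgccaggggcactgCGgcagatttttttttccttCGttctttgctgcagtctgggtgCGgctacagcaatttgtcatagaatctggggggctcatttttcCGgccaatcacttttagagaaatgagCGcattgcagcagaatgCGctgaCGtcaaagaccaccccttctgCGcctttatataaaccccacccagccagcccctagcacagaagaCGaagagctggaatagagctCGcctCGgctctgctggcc
Peg3: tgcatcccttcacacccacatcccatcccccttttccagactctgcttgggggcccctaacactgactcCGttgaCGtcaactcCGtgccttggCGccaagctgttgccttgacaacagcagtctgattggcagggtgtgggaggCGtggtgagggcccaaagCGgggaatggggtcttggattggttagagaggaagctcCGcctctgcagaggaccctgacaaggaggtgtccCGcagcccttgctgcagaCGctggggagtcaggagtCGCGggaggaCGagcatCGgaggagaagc
Grb10: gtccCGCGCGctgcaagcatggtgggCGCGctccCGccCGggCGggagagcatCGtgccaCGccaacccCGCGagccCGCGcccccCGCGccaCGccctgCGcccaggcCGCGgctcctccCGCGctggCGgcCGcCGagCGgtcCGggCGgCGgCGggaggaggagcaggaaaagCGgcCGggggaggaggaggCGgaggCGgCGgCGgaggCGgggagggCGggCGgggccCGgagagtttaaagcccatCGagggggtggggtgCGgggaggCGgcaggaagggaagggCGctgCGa
The Grb10 window held 45 CG, a number reached by 1.93% of the 32851 windows in the RefSeq table. The Peg3 and Meg3 windows held 13 each, and 37.9% of all windows held at least that many. The Dlk1 window held 9, against 45.8% of all windows with at least 9.

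The deposited values are normalized counts, that is reads per gene divided by a size factor for each library, and they summed to between 11392429 and 11483486 per library. A gene entered the test if 3 or more libraries had 10 or more normalized counts, and limma was fitted to log2(normalized count + 1) over these 14096 genes, with Benjamini-Hochberg adjustment over all of them. Because of the added count, fold changes of low genes come out too small, and a group with 3 or fewer normalized counts in each library is called at the floor. Gnaq itself was not lower in the libraries labelled GαqKO (1665, 1660.2 and 1747 normalized counts in WT; 1959.7, 1931 and 1888 in GαqKO), while Gna11 fell from a mean of 2148 (SD 29.0, n = 3) to one of 451.6 (SD 28.7, n = 3), so every direction below is drawn from the labels. By Western blot and immunofluorescence, the paper found Gαq protein lacking in its GαqKO MEFs, which RNA counts do not measure. The Y-linked gene Ddx3y was listed at 0 in each library labelled GαqKO and reached 1197 ± 52.3 normalized counts (SD, n = 3) in WT. Of 14 fibroblast markers, 12 had a mean of at least 10 normalized counts in WT and 13 in GαqKO, with summed levels of 109107 to 115895 and of 80439 to 84125. Of the 13 tested, 6 were higher in GαqKO, among them Pdgfra (19.6 normalized counts on average in WT against 2320 in GαqKO), Dcn (described below) and Thy1 (0.696, at the floor, against 64.9), and 7 were lower, among them Col1a1 (16671 against 5774), Col5a1 (5701 against 1951) and Fn1 (11826 against 7117). The shares over all tested genes were 31.8% higher and 34.1% lower, and Thy1 passed the filter only through GαqKO. Lum was at or near 0 in both groups. The 7 epithelial markers summed to between 515 and 544 normalized counts in WT, mostly Cdh1 and Krt14 with some Krt8 and Krt18, and to between 10.1 and 23.1 in GαqKO, with Epcam at 3.05 and 4.64. Of the neural markers, Tubb3 had means of 406 in WT and 60.9 in GαqKO, Map2 of 431 and 470.4, and Gfap of 11.2 and 7.33, with Sox2 listed at 0. Of the haematopoietic markers, Cd68 had means of 93.0 and 66.9 and Csf1r of 15.6 and 11.1. The endothelial, muscle, adipocyte, trophoblast and pluripotent lists each summed to at most 34.97 normalized counts in every library. Their members with a mean of at least 10 in a group were Pecam1, Des, Fabp4, Pparg and Nanog, while Myog, Myf5, Actc1, Prl3d1, Zfp42 and Utf1 were listed at 0. The part of these differences between the lines in the results below was not tested.

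Imprinted genes moved in both directions between the groups, from Dlk1 at a log2 fold change of 10.52 to Peg10 at -10.89. At an adjusted p under 0.05, 5 of the 17 tested members were higher in GαqKO and 8 were lower, against 31.8% and 34.1% of all tested genes. With the further demand that the log2 fold change exceed 1 in size, there were 2 higher (Dlk1 and Mirg) and 6 lower (Peg10, Sgce, Peg3, Usp29, Grb10 and Airn), against 10.2% and 10.5% of all tested genes. Past this threshold 4 were higher without the filter and in DESeq2 on recovered reads of 5 libraries, and 0 were higher (limma, 0 also at an unadjusted p under 0.05) and 2 lower with at least 10 normalized counts required in every library. The median size of the log2 fold change was 1.06 over the tested members and 0.39 over all tested genes. Dlk1, Mirg, Peg10, Sgce and Peg3 were at the floor in 1 group and passed the filter through the other, so that they had to differ to be tested. Usp29 was above the floor but also passed the filter only through WT. The counts above thus describe the members without supporting more. In bulk RNA, fewer cells with a transcript and less of it in each cell cannot be told apart. Without the fold threshold, that stricter filter left 3 members higher and 4 lower.

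By parental copy, the paternally expressed members held most of the decreases. Of the 9 tested, Dlk1 was higher and 6 were lower (Peg10, Sgce, Peg3, Usp29, Impact and Airn), with a median log2 fold change of -1.06. Peg10, Sgce, Peg3 and Usp29 entered only through their WT values, and the median was -0.60 without the filter and -0.31, with 0 members higher (limma, 0 also at an unadjusted p under 0.05) and 2 lower, with at least 10 normalized counts in every library. Of the 8 tested maternally expressed members, 4 were higher (Mirg, Copg2, Trappc9 and Commd1) and 2 were lower (Grb10 and Igf2r), with a median of 0.13. The median over all tested genes was -0.012. The difference between the parental classes was not tested, and the sign of the maternal median was not stable, at -0.10 without the filter and -0.12 in DESeq2. Of 12 members whose imprinting depends on the tissue, many of them imprinted only in tissues such as placenta or brain, 7 were tested, of which 3 were higher and 1 was lower. The lower one was Grb10, whose maternal copy is read in most organs. Of the 26 members in the table that are imprinted more broadly, 10 were tested, of which 2 were higher and 7 were lower. This split and that by parental copy largely coincide. Among the tested members, the tissue-dependent group holds only Inpp5f of the paternally expressed ones, and all maternally expressed ones but Mirg and Igf2r. Peg10 and Sgce start next to each other, as do Peg3 and Usp29, so their decreases need not be separate observations. Over all tested genes 31.8% were higher and 34.1% lower. In the broad group, the calls on Dlk1, Mirg, Peg10, Sgce, Peg3 and Usp29 are of genes tested only through the group where they are high.

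**Figure D1:**
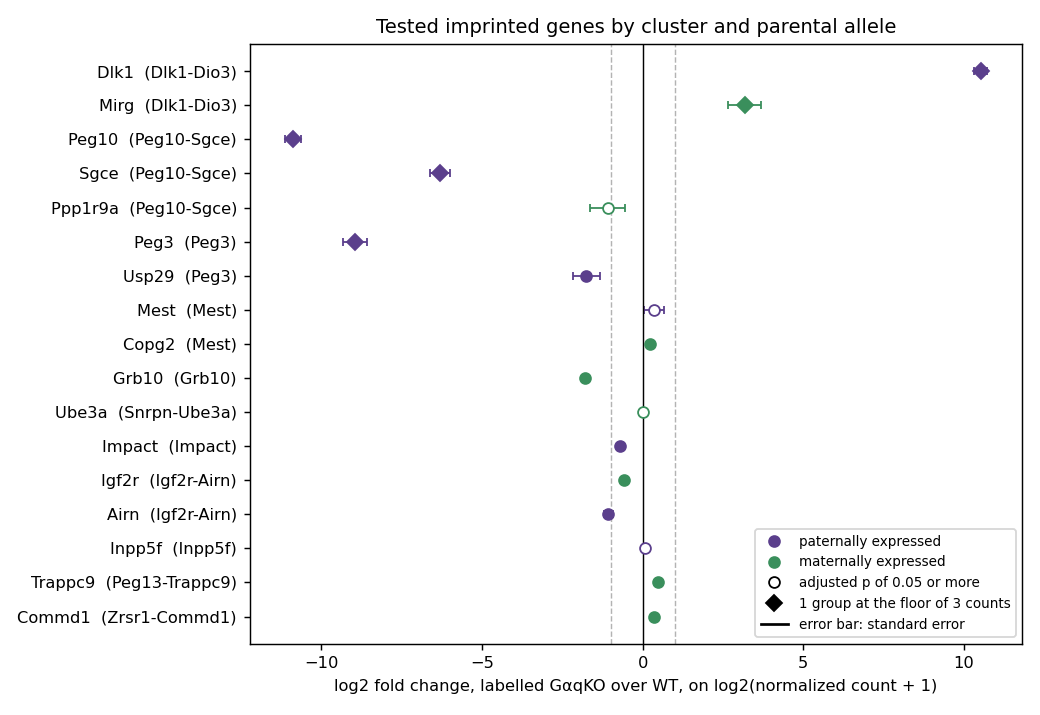
Log2 fold change (labelled GαqKO over WT, on the log2(normalized count + 1) scale) of the 17 tested imprinted genes, named with their cluster. Purple points are paternally and green points maternally expressed genes, open points have an adjusted p of 0.05 or more, diamonds had 1 group at the floor of 3 counts, bars are standard errors and dashed lines mark a log2 fold change of 1 in size. Dlk1 lies at 10.52 and Peg10 at -10.89, while Mest, Ube3a and Inpp5f lie near 0.

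In the Dlk1-Dio3 cluster on chromosome 12, each transcript that differed was higher in the libraries labelled GαqKO, and the protein-coding gene Dlk1 went from no counted reads to a high level. Dlk1 (ENSMUSG00000040856.18; GRCm39, chromosome 12, 109418749 to 109429262) encodes a membrane protein with EGF-like repeats that marks preadipocytes and holds back their maturation. It was listed at 0 in all 3 WT libraries and had 1469.6, 1542 and 1399.8 normalized counts in the libraries labelled GαqKO. The groups lay far apart, with a level at least 490.2-fold higher in GαqKO when the WT libraries are set at the floor of 3 counts, which covers counting error only. The fitted log2 fold change was 10.52 (standard error, SE, 0.21, limma adjusted p = 7.95e-14), and it depends on the added count of 1.
The noncoding transcripts of the maternal copy stayed low in both groups. Mirg, the host transcript of a microRNA cluster (chromosome 12, 109696198 to 109715898), had 1.04, 0.97 and 0 normalized counts in WT and 12.2, 15.0 and 13.1 in GαqKO. Its summed count was 20.01-fold higher in GαqKO (95% exact binomial interval 5.19 to 171, for counting error only), with a log2 fold change of 3.18 (SE 0.52, limma adjusted p = 0.000103). Rian, a host transcript of small nucleolar RNAs, gave no read in WT and had 15.0, 8.09 and 8.06 normalized counts in GαqKO, at least 3.46-fold higher against the same floor.
Rtl1, a retrotransposon-derived gene of the paternal copy that acts in placenta and muscle, had 1.04, 0 and 0 normalized counts in WT and 10.3, 11.6 and 7.05 in GαqKO. Its groups did not overlap, with a ratio of 27.7 that rests on 1 read in WT (95% exact binomial interval 4.81 to 1184). Rian and Rtl1 were under the filter, and in the limma fit without a filter their adjusted p were 5.25e-05 and 0.000285. Part of the Rtl1 exons, 9.48% of their bases, is shared with exons of other genes, and the strand setting of the counting is not given in the sources used here.
Meg3, the long noncoding RNA at the start of the maternal transcripts, did not follow them. It had 12.5, 8.74 and 4.07 normalized counts in WT and 5.63, 8.09 and 6.04 in GαqKO, groups that overlapped, with an adjusted p of 0.784 from limma without the filter. Dio3, which encodes the deiodinase that inactivates thyroid hormone, was listed at 0 in each library. Between Dlk1 and Dio3 the table also lists 67 microRNA genes and 23 small nucleolar RNA genes, each at 0 in all 6 libraries, which were made after poly-A selection.

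**Figure D2:**
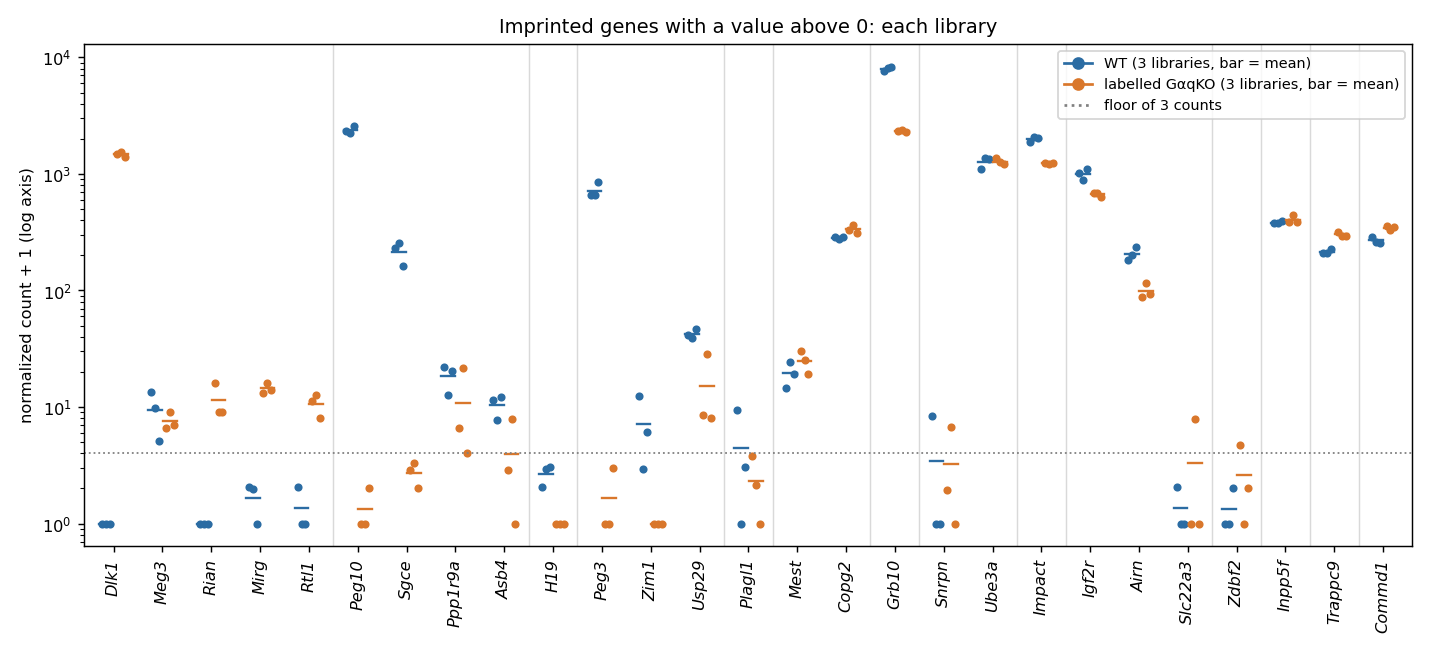
Normalized count + 1 on a log axis for each library of the 27 imprinted genes with a value above 0 in at least 1 library, ordered by cluster, with WT in blue and the libraries labelled GαqKO in orange. Points are libraries, short bars are means of 3 libraries, the dotted line is the floor of 3 counts and grey lines part the clusters. Dlk1 stands at the bottom in WT and near 1471 in GαqKO, and Peg10 and Peg3 stand the other way round.

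Peg10 and Sgce, neighbours that share a promoter region, were both all but absent from the libraries labelled GαqKO. Peg10 (ENSMUSG00000092035.9; chromosome 6, 4747306 to 4760517) is a retrotransposon-derived gene needed to build the placenta. It had 2325, 2267 and 2571 normalized counts in WT, the second highest level per kilobase of exon of any member there, and 0, 0 and 1.01 in GαqKO. The log2 fold change was -10.89 (SE 0.26, limma adjusted p = 4.84e-13), and the summed counts differed 7114-fold, a ratio that rests on 1 read (95% exact binomial interval 1285 to 283002).
Sgce (ENSMUSG00000004631.16; chromosome 6, 4672057 to 4747207) encodes epsilon-sarcoglycan, a membrane protein of the dystrophin-associated complex, and is read in the opposite direction from a start 99 bases away from that of Peg10. It had 229, 256 and 160 normalized counts in WT and 1.88, 2.31 and 1.01 in GαqKO. The groups lay apart by 124-fold in summed counts (95% exact binomial interval 55.0 to 399), with a log2 fold change of -6.31 (SE 0.30, limma adjusted p = 4.49e-10).
The maternally expressed genes on the far side of Peg10 were low in both groups. Ppp1r9a, the gene of the actin-binding protein neurabin, had 20.9, 11.7 and 19.3 normalized counts in WT and 5.63, 20.8 and 3.02 in GαqKO. GαqKO replicate 2 lay within the WT range, and the log2 fold change of -1.09 (SE 0.54, limma adjusted p = 0.0899) did not pass the test. Without that library it was -1.78 (adjusted p = 0.00438 from limma). GαqKO replicate 2 had the fewest recovered reads of the 5 libraries in which reads could be recovered (9853000) and the most genes above 0 (20991). Asb4, whose protein takes part in ubiquitin ligase complexes, had 10.4, 6.80 and 11.2 normalized counts in WT and 1.88, 6.94 and 0 in GαqKO, with groups that overlapped through the same library, and an adjusted p of 0.0366 from limma without the filter.

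The Peg3 cluster on chromosome 7 gave the same picture of loss from the libraries labelled GαqKO, in unequal measure. Peg3 (ENSMUSG00000002265.18; chromosome 7, 6706882 to 6733468) encodes a large zinc finger protein that acts in growth and maternal behaviour. It had 653, 657 and 847 normalized counts in WT and 0, 0 and 2.01 in GαqKO. The log2 fold change was -8.95 (SE 0.37, limma adjusted p = 1.12e-10), with a ratio of summed counts of 1071 that rests on 2 reads (95% exact binomial interval 298 to 8907).
Usp29, a gene of the ubiquitin protease family that starts 109 bases from Peg3 and is read the other way (chromosome 7, 6733577 to 6970218), fell less. It had 40.7, 37.9 and 45.8 normalized counts in WT and 7.51, 27.7 and 7.05 in GαqKO. The groups did not overlap, although GαqKO replicate 2 lay well above the other libraries of its group, and the log2 fold change was -1.76 (SE 0.42, limma adjusted p = 0.00226). It ranged from -2.35 to -1.44 when single libraries were left out, and Usp29 passed the filter only through WT. The RefSeq windows of Peg3 and Usp29 share 263 of their 300 bases, on opposite strands, so the Peg3 sequence printed above holds most of the promoter window of both.
Zim1, a maternally expressed zinc finger gene next to Peg3, had 11.5, 1.94 and 5.09 normalized counts in WT and was listed at 0 in the libraries labelled GαqKO. WT replicate 2 was itself under the floor of 3 counts, so no fold is given, and without the filter the adjusted p was 0.00176 from limma. Of the members in this cluster with a value above 0, each was thus lower in GαqKO or listed at 0 there, whichever parental copy it is read from.

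Within 500 kb of Peg10 and Peg3, most tested genes that are no members differed by far less. Within 500 kb of the Dlk1 start, the 1 tested gene that is no member was Begain, which is itself among the other imprinted genes below and was higher (log2 fold change 4.55). Around Peg10, 4 such genes were tested. Casd1, which is also among the other imprinted genes below, was slightly higher (log2 fold change 0.30), and Col1a2 was lower (-0.36). The pseudogene Gm8602 did not pass the test (0.027), and the transcript Gm44250, of unclear class, was lower (-3.28). Gm44250 passed the filter only through WT and Begain only through GαqKO, so that both had to differ to be tested. Pon3 (-2.17) and Pon2 (-1.36), other imprinted genes of the Peg10-Sgce cluster, start just outside this window and were lower. Around Peg3, 8 were tested, of which 1 was higher, 3 were lower and none passed a log2 fold change of 1 in size. Of all tested genes, 31.8% were higher and 34.1% lower, and 10.2% and 10.5% were so past that size. These windows were chosen after the values of Dlk1, Peg10 and Peg3 had been seen.

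**Figure D3:**
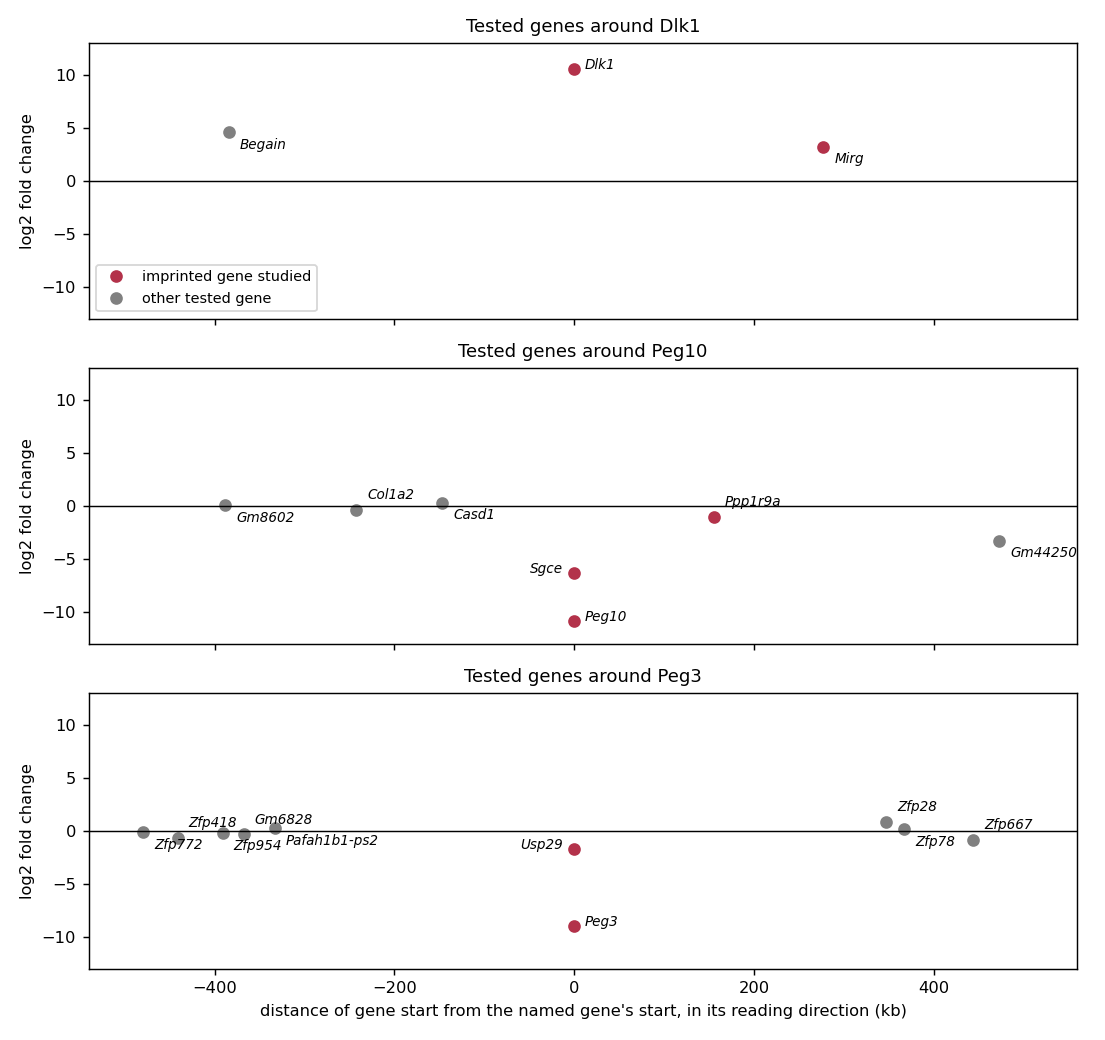
Log2 fold change (labelled GαqKO over WT) of each tested gene within 500 kb of the starts of Dlk1, Peg10 and Peg3, against the distance of its start in kb along the reading direction of the named gene. Red points are imprinted genes of the list and grey points other genes. Sgce and Usp29 start at the same place as Peg10 and Peg3 on this scale, at -6.31 and -1.76, and the 8 grey points around Peg3 lie between -0.86 and 0.87.

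Grb10 and Igf2r, members that act on insulin and IGF signalling, were both lower in the libraries labelled GαqKO, as was Airn. Grb10 (ENSMUSG00000020176.18; chromosome 11, 11880498 to 11988683), an adaptor protein that dampens signalling from the insulin and IGF1 receptors, had the highest level per kilobase of exon of any member in WT. It had 7678, 8063 and 8307 normalized counts in WT and 2343, 2375 and 2276 in GαqKO. Replicates were close to each other and the groups lay 3.44-fold apart, with a log2 fold change of -1.78 (SE 0.043, limma adjusted p = 5.98e-13). Its imprinting depends on the tissue, with the maternal copy read in most organs and the paternal copy in neurons.
Igf2r (ENSMUSG00000023830.15; chromosome 17, 12901293 to 12988614) encodes the receptor that clears IGF2 from the cell surface and carries enzymes to the lysosome. It had 1023, 893 and 1103 normalized counts in WT and 682, 686 and 638 in GαqKO, with groups that did not overlap (log2 fold change -0.58, SE 0.073, limma adjusted p = 8.99e-06). Airn (chromosome 17, 12960198 to 13079299) is the long noncoding RNA, read from the paternal copy across the start of Igf2r, that silences Igf2r on that copy. It had 181, 202 and 233 normalized counts in WT and 87.3, 114 and 91.6 in GαqKO, with a log2 fold change of -1.06 (SE 0.14, limma adjusted p = 1.72e-05) that left the threshold of 1 without WT replicate 3 (-0.97) or GαqKO replicate 1 (-0.988).
Receptor and antisense RNA were thus both lower. Per library, Airn amounted to 17.7, 22.6 and 21.1% of the Igf2r count in WT and to 12.8, 16.7 and 14.4% in GαqKO. These shares did not overlap between the groups, by a small margin, and the difference was not tested. Airn and Igf2r lie on opposite strands with no exon base in common, and 18.9% of the Airn exon bases lie in the span of another gene. Without the strand, reads of the overlapping stretch cannot be told apart.
Slc22a3, an organic cation transporter gene of the same cluster imprinted in placenta, had 1.04, 0 and 0 normalized counts in WT and 0, 6.94 and 0 in GαqKO. Its value rests on 1 library, GαqKO replicate 2.
The growth factor gene Igf2, on chromosome 7, was listed at 0 in all 6 libraries. H19, the noncoding RNA that shares its control region, had 1.04, 1.94 and 2.04 normalized counts in WT and was listed at 0 in GαqKO, so that both groups were at the floor. In the neighbouring Kcnq1ot1 cluster, Cdkn1c (an inhibitor of cyclin-dependent kinases), Phlda2 (a brake on placental growth), Ascl2 (a transcription factor of trophoblast) and the silencing RNA Kcnq1ot1 were listed at 0 in each library.

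The tested members outside these clusters had log2 fold changes under 1 in size. Impact (ENSMUSG00000024423.7), which encodes an inhibitor of the amino acid sensor kinase GCN2, had 1891, 2077 and 2031 normalized counts in WT and 1233, 1221 and 1236 in GαqKO. The groups did not overlap, and the log2 fold change was -0.70 (SE 0.049, limma adjusted p = 2.22e-08).
Trappc9, the gene of a subunit of a vesicle tethering complex, had 207, 211 and 227 normalized counts in WT and 318, 295 and 291 in GαqKO (log2 fold change 0.49, SE 0.090, limma adjusted p = 0.000296). Commd1, whose protein acts in copper handling and endosomal sorting, had 288, 261 and 254 normalized counts in WT and 360, 331 and 347 in GαqKO (log2 fold change 0.37, SE 0.085, limma adjusted p = 0.00169). Both sets of values were higher in GαqKO without overlap. Of the Commd1 exon bases, 95.1% lie within the span of another gene but 4.91% within its exons.
Copg2, which encodes a coat protein of Golgi vesicles, had 287, 277 and 285 normalized counts in WT and 331, 364 and 308 in GαqKO. The log2 fold change of 0.24 (SE 0.086, limma adjusted p = 0.0261) did not hold up in every fit. The adjusted p was 0.0746 without WT replicate 2, 0.0563 without GαqKO replicate 1 and 0.118 without GαqKO replicate 2, all from limma. Mest, read from the paternal copy next to it and named for its expression in mesoderm, had 13.6, 23.3 and 18.3 normalized counts in WT and 29.1, 24.3 and 18.1 in GαqKO, with overlapping groups and a log2 fold change of 0.36 (SE 0.31, limma adjusted p = 0.318). Copg2 and Mest overlap tail to tail, and 34.5% and 47.7% of their exon bases lie in exons of other genes, so their values are uncertain.
Inpp5f, a phosphoinositide phosphatase gene with an imprinted form in brain, had 376, 377 and 392 normalized counts in WT and 385, 442 and 389 in GαqKO (log2 fold change 0.084, SE 0.078, limma adjusted p = 0.360). Ube3a, the ubiquitin ligase gene that is read from the maternal copy in neurons, had 1098, 1358 and 1338 normalized counts in WT and 1361, 1265 and 1208 in GαqKO (log2 fold change 0.020, SE 0.076, limma adjusted p = 0.833). The values of both genes overlapped between the groups, and no difference passed the test.
The remaining members were low or at 0. Snrpn, a splicing protein gene and the anchor of the same cluster as Ube3a, had 7.31, 0 and 0 normalized counts in WT and 0.94, 5.78 and 0 in GαqKO. Plagl1, a zinc finger transcription factor of embryonic growth, had 8.35, 0 and 2.04 in WT and 2.82, 1.16 and 0 in GαqKO, and the zinc finger gene Zdbf2 had 0, 0 and 1.02 in WT and 3.76, 0 and 1.01 in GαqKO. These 3 genes were too low for their groups to be told apart at this depth. Ndn and Magel2 (MAGE family genes), Nnat (a small membrane protein of the endoplasmic reticulum), Nap1l5 (related to nucleosome assembly proteins) and Peg13 (a noncoding RNA inside Trappc9) were listed at 0 in all libraries.

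Zeros in the table went with the position of a gene inside another gene. In all, 11 members were listed at 0 in each library, and 8 of them (Igf2, Cdkn1c, Kcnq1ot1, Ndn, Magel2, Nnat, Nap1l5 and Peg13) have all their exon bases inside the span of other counted genes. The other member of this kind is H19, with 1.67 normalized counts on average in WT. Of the 25 members with under 50% of their exon bases in such spans, 3 were listed at 0 (Dio3, Phlda2 and Ascl2). Over all protein-coding genes, 71.5% of the 1607 that lie wholly inside spans of other genes were listed at 0, against 25.2% of the 11516 that overlap no other gene. The share was 84.3% of the 541 that lie inside other genes without an exon base in common with them. A zero of these 8 members is therefore given only as listed, and whether they were transcribed was not tested.

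**Figure D4:**
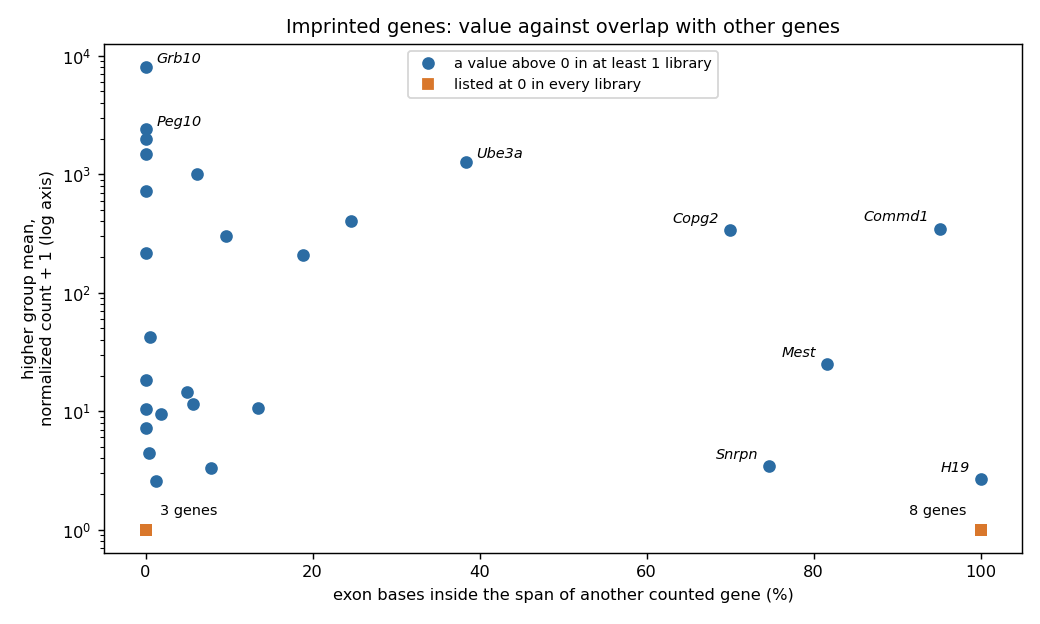
Higher of the 2 group means (normalized count + 1, log axis) of the 38 imprinted genes in the table against the share of their exon bases that lies inside the span of another counted gene, in percent. Blue circles had a value above 0 in at least 1 library, and orange squares, 8 genes at 100% and 3 genes at 0%, were listed at 0 in all 6 libraries.

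Per kilobase of exon, the order of the members changed between the groups. In WT, Grb10 led with 782 ± 30.9 normalized counts per kb (SD, n = 3), before Peg10 at 358 ± 24.2, Impact at 231 ± 11.2 and Igf2r at 107 ± 11.3. Ube3a at 58.2 ± 6.65 and Peg3 at 52.6 ± 8.12 followed and lay within their spread of each other. In the libraries labelled GαqKO, Dlk1 came first with 244 ± 11.8 normalized counts per kb (SD, n = 3), just above Grb10 at 227 ± 4.93. Impact at 142 ± 0.90 and Igf2r at 71.3 ± 2.79 came next, and Ube3a at 58.8 ± 3.54 and Commd1 at 57.8 ± 2.43 lay within their spread. The leading members were thus Grb10 and Peg10 in WT and Dlk1 and Grb10 in GαqKO.

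Promoters were then compared by their letters. The list was itself made of genes known to be imprinted, so letters tied to that mode of control are no separate support. RefSeq windows were found for 31 of the members, 45 windows in all, and Zrsr1, which has no expression values here, is among them. Their median CG number was 13, against 7 over all 32851 windows. TGCCGC, the hexamer that the imprint-keeping protein ZFP57 reads when it is methylated, was found on either strand in 13 of the member windows (28.9%) and in 11.6% of all windows. The first windows of Meg3 and Grb10 held it once each, and those of Dlk1, Peg3 and Usp29 did not hold it. The core GCCATNTT of the factor YY1 was found in 1 member window, that of Ube3a (2.22%), and in 6.05% of all windows. The 13 windows with the hexamer belong to 12 members, and overlapping windows of Mest are both counted. The hexamer itself holds a CG and the member windows held more CG, and no windows matched for CG were compared. Windows of the same gene can overlap, both motifs were searched on both strands without regard to any other motif, and a match is no evidence of binding.

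Other imprinted genes, which were chosen as a comparison list of 40 symbols, also moved both ways and by large amounts. Of 20 tested, 8 were higher and 11 were lower in the libraries labelled GαqKO, with a median log2 fold change of -0.26, against 31.8% higher, 34.1% lower and a median of -0.012 over all tested genes. The list's median was -0.12 without the filter and -0.048 in DESeq2 on recovered reads of 5 libraries. Begain passed the filter only through GαqKO and Pon3 only through WT, so that they had to differ to be tested, and these counts describe the list without supporting more. Dcn, the gene of the matrix proteoglycan decorin that is imprinted in placenta and also stands in the fibroblast marker list, had a log2 fold change of 5.66 (32.1 ± 3.00 to 1663 ± 53.8 normalized counts, SD, n = 3 each). Begain, at the edge of the Dlk1-Dio3 cluster, was at 1.32 ± 1.48 normalized counts in WT and 45.8 ± 1.01 in GαqKO (SD, n = 3 each), with a ratio of summed counts of 34.7 (95% exact binomial interval 13.1 to 127). Tnfrsf23 (2.52), Sfmbt2 (1.32) and Gnas (1.23), the gene of the stimulatory G protein subunit, were the other log2 fold changes over 1. On the lower side, the amino acid transporter gene Slc38a4 had the largest fall (log2 fold change -5.48), with 2727 ± 115 normalized counts in WT and 60.2 ± 7.26 in GαqKO (SD, n = 3 each). Herc3 (-4.58), Pon3 (-2.17), Peg12 (-1.43) and Pon2 (-1.36) followed, of which Pon2 and Pon3 belong to the Peg10-Sgce cluster.
Factors that keep imprints through development, among them zinc finger proteins, DNA methyltransferases and chromatin proteins, had a median size of change of 0.30 on the log2 scale, against 0.92 for the other imprinted genes and 0.39 over all tested genes. Of 18 tested of 20, 6 were higher and 8 were lower, with a median log2 fold change of -0.062 that turned to 0.012 without the filter, against the same 31.8% and 34.1% of all tested genes. Arid4b (-1.02), a chromatin gene, alone passed 1 in size, and it left that threshold without WT replicate 1 (-0.998) or GαqKO replicate 2 (-0.994). The number of higher factors was between 3 and 6 when single libraries were left out and was 3 without GαqKO replicate 3. Of the partners of IGF2 signalling, 12 of 14 were tested, of which 5 were higher and 7 were lower, again against 31.8% and 34.1% of all tested genes. Igfbp6 (2.37), Igfbp3 (1.80), Igfbp4 (1.32) and Irs1 (1.04) were higher by more than 1 on the log2 scale. Igf1 (-3.89), Igf2bp3 (-1.80), Pappa (-1.28) and Irs2 (-1.004) were lower. Igf1 passed the filter only through WT, so that it had to differ to be tested. Irs1 left the threshold of 1 without WT replicate 1 (0.93), and Irs2 left it without WT replicate 3 (-0.97) or GαqKO replicate 3 (-0.98). The binding proteins hold IGFs outside the cell, Pappa is a protease that cuts them, and Irs1 and Irs2 are adaptors downstream of the receptor that Grb10 acts on.

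**Figure D5:**
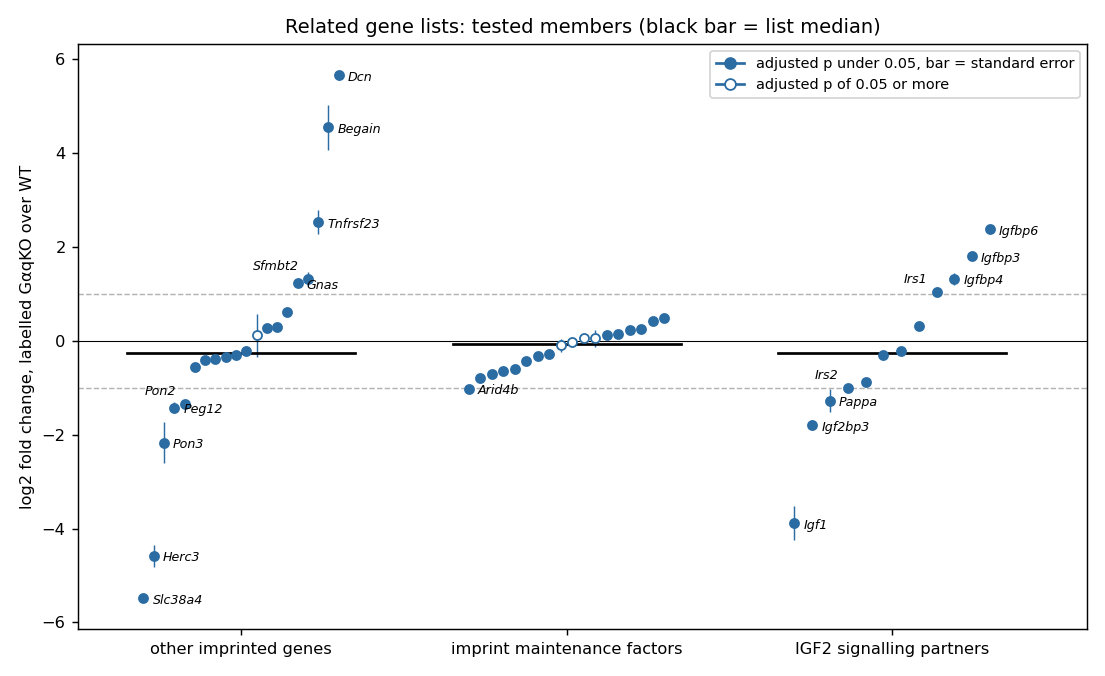
Log2 fold change (labelled GαqKO over WT) of the tested members of 3 related gene lists, in rising order within each list, with standard errors as bars, open circles for an adjusted p of 0.05 or more, black lines for the list medians and dashed lines at 1 in size. The 20 other imprinted genes run from -5.48 to 5.66, while the 18 imprint maintenance factors run from -1.02 to 0.48.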

How the data were processed

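RNA from 3 WT and 3 GαqKO MEF libraries (3 biological replicates per genotype in the study's methods) was sequenced by the authors after poly-A selection, aligned to GRCm39 with Rbowtie2 and counted with featureCounts on GENCODE release 32. The authors deposited a signal, namely normalized counts (gene counts divided by a size factor per library), and versions, strand setting and filters are not given in the sources used here. Samples were grouped by the genotype label, and 0 columns belonged to other samples.

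Identifiers were matched to GENCODE release 39 of the same build (56310 of 56953 genes, 643 unmatched, Zrsr1 among the members). Members and comparison lists were chosen with earlier results of these data known. Each member is named, and from the other lists up to 5 genes per direction past a log2 fold change of 1 and an adjusted p of 0.05; Gm44250, Gm8602 and Col1a2 were named after their values were seen, as neighbours. Some marker genes are not reported here. limma (3.58.1, R 4.3.3) was fitted without a covariate to log2(normalized count + 1) of each gene that reached 10 normalized counts in 3 or more libraries, with limma's trend option on. Values above 0 were multiples of what 1 read is worth in 5 libraries (100% within a tolerance of 0.1), which gave 9853000 to 12229175 reads and allowed edgeR (4.0.16) and DESeq2 (1.42.0). The reads of GαqKO replicate 3 could not be recovered with the same certainty, so no count test used all 6 libraries. Chi-square per gene in the 4 replicate pairs that had such reads was 2.44 to 5.50, above counting noise. That does not show whether the replicates came from separate embryos, and each library was counted as 1 replicate. The floor was 3 counts per library, and floors and intervals cover counting error only. Levels per kb divide by the union of a gene's annotated exons. Ratios near 0 used an exact (Clopper-Pearson) interval on summed, rounded normalized counts. The alternatives were TMM scaling, no filter, a stricter filter, pseudocounts of 0.5 and 5, a replicate block, no trend, the count tests and each library left out.

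On simulated libraries with 200 changed genes, limma recovered 191 with 11 false calls among 13987 genes, edgeR 192 with 7 among 14194 and DESeq2 174 with 1 among 24693. The simulation gave every gene the same dispersion and changed far fewer genes than were called in the data. Its figures check the code and do not measure the error of the calls above. Python 3.11.15 with pandas 2.3.3, numpy 2.4.6 and matplotlib 3.10.9 was used.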

Additional observations from a re-analysis of the deposited data

How the results depend on the processing

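The filter on low values moved the counts of members most. With at least 10 normalized counts in every library, 3 imprinted members were higher and 4 lower, and past the fold threshold 0 (limma, 0 also at an unadjusted p under 0.05) and 2, since Dlk1, Peg10, Sgce, Peg3, Usp29 and Mirg then left the test. The paternally expressed members then had 0 higher in limma (0 also at an unadjusted p under 0.05), 2 lower and a median log2 fold change of -0.31, and over all genes 831 were higher and 765 lower past the fold threshold. Without a filter, 4 members were higher past the fold threshold, the paternally expressed members had 2 higher and a median of -0.60, the maternally expressed ones 5 lower and a median of -0.10, the other imprinted genes a median of -0.12 and the maintenance factors one of 0.012. On recovered reads of 5 libraries, edgeR gave 2 paternally expressed members higher, and DESeq2 gave 4 members higher past the fold threshold, 2 paternally expressed members higher, medians of -0.12 for maternally expressed members and -0.048 for the other imprinted genes, and 3 maintenance factors higher. With single libraries left out, 3 to 6 maintenance factors were higher. The cause of these shifts was not tested beyond the genes that enter. Ube3a, which passed no test, ran from -0.079 to 0.074 with single libraries left out and changed sign without WT replicate 1 (-0.079) and without GαqKO replicate 1 (-0.026), Copg2 also missed the threshold in DESeq2 (adjusted p = 0.0959), and 16 of 17 members in DESeq2 and 17 of 17 in edgeR kept the call and sign of limma without GαqKO replicate 3.

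Replicate numbers did not pair the libraries, with correlations of same-numbered deviations of -0.045, -0.15 and -0.064. With the number as a replicate block, 5 members were higher and 8 lower, 5 maintenance factors were higher, and 4324 and 4638 genes were called in all, and the block changed no call on a tested member. TMM scaling, both pseudocounts and no trend left each count here within 1.5 times, and the median over all genes shifted by less than 0.1 on the log2 scale. Depth limits Rian, Rtl1, Mirg, Zim1, H19 and the other members near the floor.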
